A study of Homo sapiens with 21 samples.

Results

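The oxysterol-binding protein family was described here in RNA-seq data from 21 subcutaneous xenografts of A549-Luc2, a luciferase-carrying derivative of the human lung adenocarcinoma line A549. Members were taken as the protein-coding genes whose symbol was OSBP, OSBP2 or OSBPL followed by a number and at most 1 letter, which gave 12 of the 60651 genes in the count table. The other 6 symbols that begin with OSBP were 5 pseudogenes and 1 antisense gene, with 30 reads in all 21 libraries together, and were left out. All tumors grew in female athymic nu/nu mice, injected at 6 to 8 weeks of age, and treatment was a daily oral gavage begun once tumors had formed. Control mice (n = 7 tumors) received the formulation alone, a mixture of 3% DMSO, 7% ethanol, 5% PEG400 and 85% corn oil, and the other mice received the oxysterol derivative Oxy186 (n = 7) or Oxy210 (n = 7) in the same formulation at 50 mg/kg. Of 10 mice per group, 7 tumors per group were sequenced. Only reads assigned to human genes were counted, so the values describe the grafted cells of 1 cell line and not the mouse stroma, and athymic hosts lack most T cells. In such bulk tissue, fewer cells of a type and less RNA per cell cannot be told apart.

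Members of the family share a lipid-binding domain that holds 1 sterol or phospholipid molecule at a time. Many of them bridge the endoplasmic reticulum and a second membrane, holding the reticulum through the anchor proteins VAPA and VAPB, and carry sterol or phosphatidylserine in exchange for phosphatidylinositol 4-phosphate (PI4P). OSBP, the founding member, was identified as a cytosolic receptor for oxysterols, and it delivers cholesterol to the trans-Golgi. The compounds given to these mice are themselves oxysterol derivatives, which is why the level of this family in the treated tumors was examined. The RNA level of a member says nothing about its lipid transfer activity or about binding of the compounds.

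The coding stretch below is what the family shares at its lipid-binding domain: in each of the 12 members, the annotated main transcript encodes the same 8-residue fingerprint, in 24 bases. It is shown for OSBP and for the members on which the comparisons below turn, because the residues are identical while the bases are not. The GC content of the stretch differs from that of OSBP in each member shown except OSBPL8. Bases that differ from OSBP are in capitals. Sequences are written 5′ to 3′ on the coding strand and were read from GRCh38.
OSBP: gaacaggtgagtcatcatccccct
OSBPL7: gaGcaggtCTCCcaCcaCccccct
OSBPL5: gaGcaggtgTCCcaCcaCccGccC
OSBPL9: gaGcaggtTTCCcatcatccAccC
OSBPL8: gaacaggtgTCCcatcatccAccA
OSBPL2: gaacaggtCagtcaCcaCcccccC

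The OSBP stretch lies at chr11:59593707-59594015 on the minus strand, over an exon junction, and 13 of its 24 bases are G or C. That of OSBPL7 also spans an intron (chr17:47810818-47813271, minus strand) and differs from OSBP at 7 bases, with a GC content of 70.8%. The OSBPL5 stretch, at chr11:3101682-3102188 on the minus strand, differs at 8 bases and reaches 75.0% GC. OSBPL9 (chr1:51782619-51782642, plus strand) and OSBPL2 (chr20:62279185-62279208, plus strand) carry it within 1 exon, with 7 and 4 differing bases. In OSBPL8, whose stretch at chr12:76384333-76386173 on the minus strand is also split, 5 bases differ and the GC content is 54.2%, the same as in OSBP. Over the 12 members the stretch ranged from 50.0% GC in OSBPL11 to 75.0% in OSBP2 and OSBPL5. The whole exons of the members spread more widely, from 34.7% GC in OSBPL8 to 62.6% in OSBPL5, beside a median of 47.7% over all tested genes.

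The libraries held between 13787493 and 17865119 counts on human genes. Their levels shifted with the GC content of genes, by an amount that differed between libraries. The slope of log2 CPM, the TMM-normalized counts scaled to library size on exon GC content, taken relative to the mean of all libraries, ran from -0.15 to 0.397 per 10 points of GC in control tumors, from -0.511 to 0.491 in Oxy186-treated tumors and from -0.329 to 0.262 in Oxy210-treated tumors. Oxy186-treated samples r1-r4, which the study set apart on a principal component plot of these same libraries, had the slopes from -0.511 to -0.18, and r5-r7 those from 0.0788 to 0.491. Mean slopes did not pass a two-sided exact permutation test between any 2 of the 3 groups (p = 0.166 for Oxy186 against control, 0.157 for Oxy210 against control and 0.642 between the compounds, where the smallest possible p is 0.000583). The 6 epithelial markers summed to 6980 to 16200 CPM. Fibroblast markers summed to 76.7 to 260 CPM, carried by LUM and COL1A1, while COL1A2 had 0 or 1 count and COL3A1 0 to 7. Endothelial markers were split, with 14 to 58 counts of PECAM1 and 2 to 43 of CDH5 but at most 2 of VWF and 1 of KDR. Leukocyte markers were split likewise, with 49 to 401 counts of LYZ but at most 8 of PTPRC, 6 of CD68 and 1 of CD3E. ADIPOQ had 0 counts in every library, and PLIN1 had 7 to 22.

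All 12 members were expressed above the filter on low counts in every comparison. Per kilobase of exon, OSBP was the most abundant member of control tumors, with a median of 22.3 RPKM (reads per kilobase of exon, scaled to library size), and OSBPL9 followed with 15.8. The order then ran OSBPL3, OSBPL7, OSBPL8, OSBPL10, OSBPL2, OSBPL11, OSBPL1A, OSBPL5, OSBP2 and, last, OSBPL6 with 0.235 RPKM. OSBP and OSBPL9 together with OSBPL3 made up most of the family's RNA, with median shares of 26.9%, 19.0% and 11% of the summed RPKM. None of the 11 neighbouring pairs in this order passed an adjusted p at or under 0.05 (two-sided exact permutation test over paired tumors). The smallest p, 0.0156, is the lowest this test can give with 7 tumors, and adjusted over 11 pairs it was 0.0572. Whether a pair at that lowest p passed depended on how many pairs reached it, so missing the threshold does not show equal levels. OSBPL9 exceeded OSBPL3, OSBPL11 exceeded OSBPL1A and OSBP2 exceeded OSBPL6 in 7 of 7 control tumors, but OSBPL7 exceeded OSBPL8 in 3 of 7 only. The order depended on the length used: per longest annotated transcript OSBPL9 came first, and 6 of 11 neighbouring pairs passed. Each of these was at the same lowest p of 0.0156, adjusted to 0.0286 in the same permutation test. For both lengths the neighbouring pairs were taken from the order in the same 7 tumors, so passing is no separate evidence for the order.

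**Figure D1:**
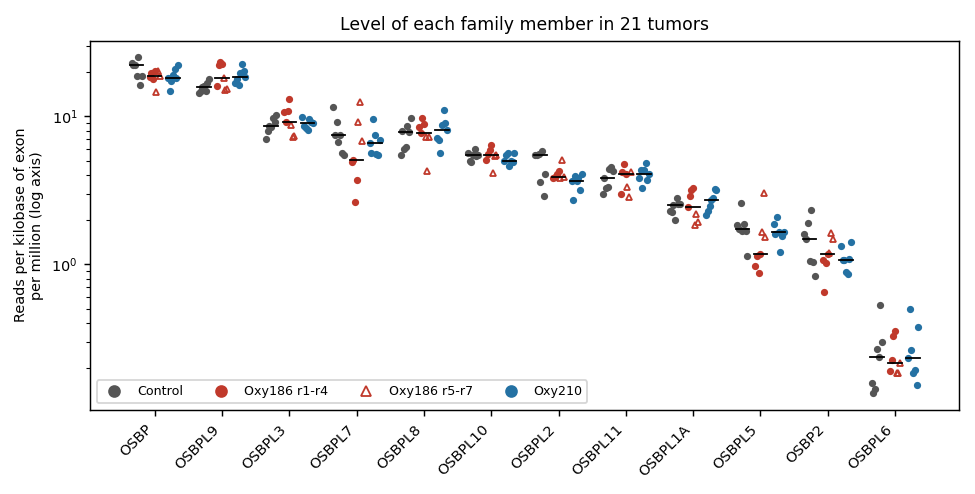
Level of the 12 family members in RPKM (log axis), 1 point per tumor and a line at each group's median, ordered by the control group. Control tumors run from a median of 22.3 for OSBP to 0.235 for OSBPL6, and the ranges of the 3 groups overlap for every member.

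In the treated groups, per kilobase of exon, OSBPL9 came first and OSBP second, and OSBPL5, OSBP2 and OSBPL6 stayed in the last places. Per longest transcript OSBPL9 already exceeded OSBP in 7 of 7 control tumors, so the change of first place depended on the length used. The family's summed level was similar in the 3 groups, with 73.5 to 89.2 RPKM in control tumors, 74.1 to 89.4 in Oxy186-treated tumors and 71.9 to 88.4 in Oxy210-treated tumors.

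No member passed the test in any comparison of whole treatment groups. With calls made at an adjusted p of 0.05 or less (quasi-likelihood test of edgeR), 0 of 12 members were called for Oxy186 against control, for Oxy210 against control and for Oxy186 against Oxy210, and over all genes 0% were called in each (percent of tested genes). At an unadjusted p under 0.05 the counts were 0 of 12, 2 of 12 and 0 of 12, beside 3.79%, 13.8% and 4.06% of all tested genes. The CPM ranges of 0 of 12 members failed to overlap in each comparison, beside 0.0235%, 0.182% and 0.0647% of all genes. DESeq2 and limma voom also called 0 members in these comparisons. Of all tested genes, DESeq2 called 0%, 0.561% and 0.0428% in that order, and limma voom 0% in each. Both comparisons with control used the same 7 control tumors. The median log2 fold change over the members was -0.07 for Oxy186 and 0.01 for Oxy210, beside -0.01 and 0.01 over all tested genes. All 12 intervals (95%) lay within a 2-fold difference in either direction in each of the 3 comparisons, so a larger change of any member was not seen at this depth and spread.

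**Figure D2:**
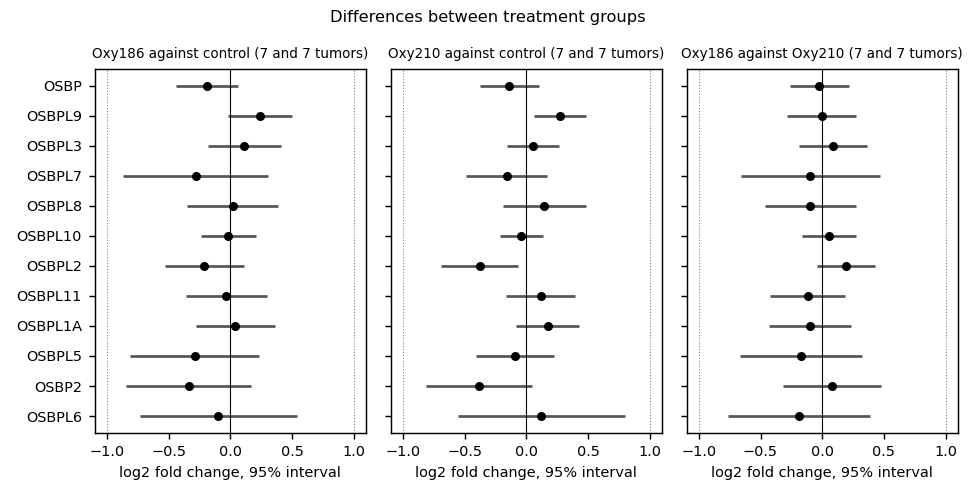
Log2 fold change of each member (points) with its 95% interval (bars) in 3 comparisons of 7 and 7 tumors, from edgeR's quasi-likelihood fit, with dotted lines at a 2-fold difference. Every interval lies within the dotted lines, and those of OSBPL9 and OSBPL2 for Oxy210 against control leave out 0 before adjustment.

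OSBP and OSBP2 form the first subfamily. OSBP, on chr11:59574398-59615774 (minus strand), had 83.4, 114 and 128.1 CPM in control tumors (lowest, median and highest), 75.2, 95.8 and 104 in Oxy186-treated tumors and 76.1, 93.2 and 114 in Oxy210-treated tumors. The treated medians were lower and the ranges overlapped. Its log2 fold change was -0.19 ± 0.12 (SE, adjusted p = 0.862, edgeR) for Oxy186 and -0.14 ± 0.12 (adjusted p = 0.573) for Oxy210. OSBP2, also called ORP4, lies on chr22:30693782-30907824 (plus strand) and is a close relative of OSBP. It ranged from 5.49 to 15.4 CPM in control tumors, from 4.30 to 10.8 under Oxy186 and from 5.68 to 9.34 under Oxy210. The 3 highest OSBP2 values of all 21 tumors came from control tumors or from Oxy186 r6, and no group stood apart. OSBP exceeded OSBP2 per kilobase by 15-fold in control tumors at the median, with a range from 10.8 to 22.6.

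OSBPL1A and OSBPL2 form the second subfamily. OSBPL1A (chr18:24162045-24397880, minus strand), whose long form acts as a cholesterol sensor on late endosomes, had a median of 20.3 CPM in control tumors, 19.4 under Oxy186 and 22.0 under Oxy210. OSBPL2 (chr20:62231922-62296213, plus strand), a short member implicated in sterol delivery to the plasma membrane and lipid droplets, was measured at 38.0, 71.6 and 76.4 CPM in control tumors, 49.8, 50.9 and 66.4 under Oxy186 and 35.5, 47.6 and 53.6 under Oxy210. Within the control group, 4 tumors lay between 71.6 and 76.4 CPM and the other 3 at 38.0, 47.3 and 53.2, so the control range covered nearly all treated tumors. The log2 fold change of OSBPL2 for Oxy210 against control was -0.38 (95% interval -0.69 to -0.06), with an unadjusted p of 0.0210 and an adjusted p of 0.305 in edgeR's test. For Oxy186 it was -0.21 (-0.53 to 0.11). Per kilobase, OSBPL2 exceeded OSBPL1A in 7 of 7 control tumors at a median ratio of 2.10, and in 6 of 7 Oxy210-treated tumors at 1.33.

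OSBPL3, OSBPL6 and OSBPL7 form the third subfamily. OSBPL3 (chr7:24796540-24981634, minus strand), which interacts with the small GTPase R-Ras and takes part in cell adhesion, had 57.2, 69.8 and 82.8 CPM in control tumors, 59.0, 73.6 and 105 under Oxy186 and 65.4, 73.4 and 80.6 under Oxy210. OSBPL7, on chr17:47807372-47821803 (minus strand), had 36.1, 48.7 and 75.9 CPM in control tumors, 17.3, 33.2 and 81.5 under Oxy186 and 36.0, 43.0 and 62.8 under Oxy210. The Oxy186-treated tumors thus held both the lowest and the highest OSBPL7 level of the study. Their coefficient of variation was 53.3%, beside 27.9% in control and 21.6% in Oxy210-treated tumors. After removal of each library's GC trend, the lowest OSBPL7 level was 28.6 CPM, under Oxy186, and the highest 55.1, under Oxy210. The standard deviation of log2 CPM then went from 0.758 to 0.312 under Oxy186, from 0.379 to 0.183 in control and from 0.290 to 0.254 under Oxy210. OSBPL6 (chr2:178194481-178402893, plus strand), known mainly from brain and muscle, was the least abundant member, with 23 to 91 reads per library and 1.55 to 6.10 CPM in control tumors. Its interval was the widest of the family for Oxy210, from -0.55 to 0.80 on the log2 scale, and its standard deviation over the 21 tumors, 0.535 on that scale, was the highest of the 12 members.

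OSBPL5 and OSBPL8 form the fourth subfamily, whose products are anchored in the endoplasmic reticulum and carry phosphatidylserine to the plasma membrane. OSBPL5 (chr11:3087107-3166739, minus strand) had 8.52, 12.98 and 19.4 CPM in control tumors, 6.51, 8.81 and 22.6 under Oxy186 and 9.03, 12.3 and 15.6 under Oxy210. OSBPL8 (chr12:76351797-76559809, minus strand) had 50.6, 72.3 and 89.5 CPM in control tumors, 39.0, 70.8 and 89.4 under Oxy186 and 52.2, 74.5 and 102 under Oxy210. The tumor with the highest OSBPL5 level, Oxy186 r6 at 22.6 CPM, was also the tumor with the lowest OSBPL8 level, at 39.0 CPM. The ratio of OSBPL8 to OSBPL5 per kilobase consequently ran from 1.40 to 11.2 among Oxy186-treated tumors, against 2.31 to 8.53 in control tumors. After removal of each library's GC trend the ratio ran from 3.25 to 6.44 and from 3.82 to 6.40, so the wider spread depended on that trend.

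OSBPL9, OSBPL10 and OSBPL11 complete the family, and their products work in part as pairs, OSBPL9 with OSBPL10 or OSBPL11, at Golgi and endosomal membranes. OSBPL9 (chr1:51577179-51798427, plus strand) was the member with the most reads, between 2039 and 3655 per library. It had 149, 162 and 183 CPM in control tumors, 154, 187 and 238 under Oxy186 and 167, 189 and 230 under Oxy210. The Oxy210-treated tumors lay above most control tumors, with the ranges overlapping between 167 and 183 CPM. Its log2 fold change was 0.28 for Oxy210 (95% interval 0.06 to 0.49, unadjusted p = 0.0132, adjusted p = 0.291 in edgeR's test) and 0.24 for Oxy186 (-0.02 to 0.50, adjusted p = 0.862). OSBPL9 exons overlap other annotated genes over 4.60% of their length on the same strand and 1.87% on the opposite strand, and whether counting used strand is not given in the sources used here. OSBPL10 (chr3:31657912-32077580, minus strand) varied least of the 12 members, with a standard deviation of 0.139 on the log2 scale over 21 tumors and medians of 66.8, 66.6 and 60.9 CPM in the control, Oxy186 and Oxy210 groups. OSBPL11 (chr3:125528858-125595497, minus strand) had medians of 17.5, 18.7 and 18.7 CPM in the same order.

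**Figure D3:**
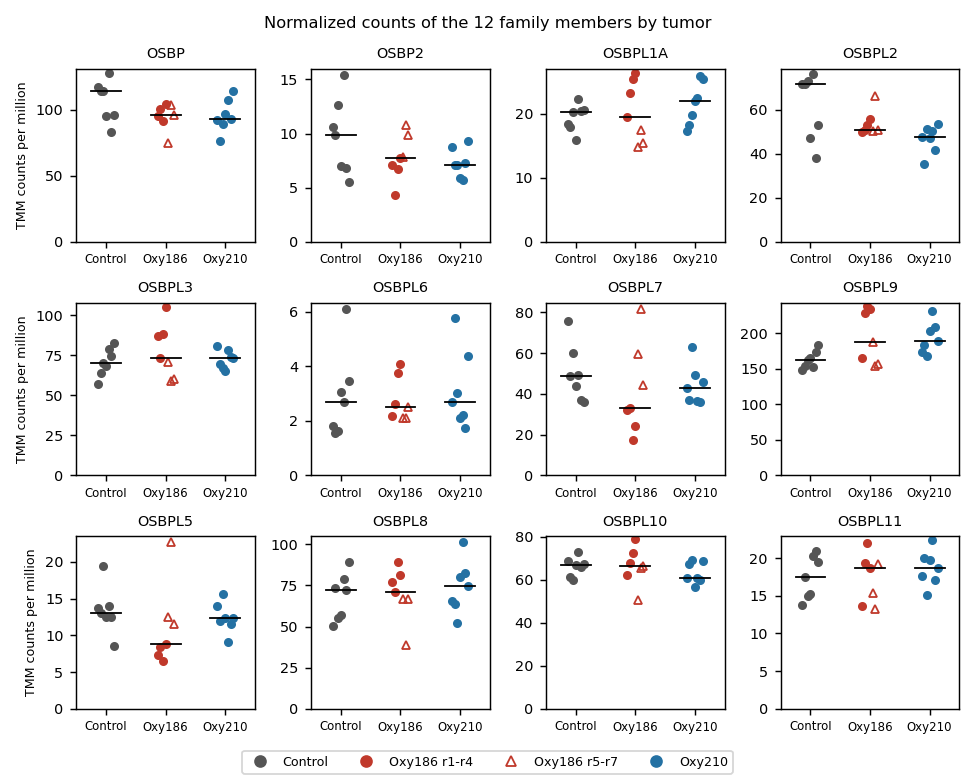
TMM-normalized CPM of each member, 1 point per tumor with a line at the group median and the y axis from 0. Oxy186-treated samples r1-r4 (filled) and r5-r7 (open triangles) are shown apart, and for OSBPL7 the filled points at 17.3 to 33.2 lie under all control tumors.

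The related compounds were given at the same dose, and 12 differences between them were compared. The largest in favour of Oxy186 was that of OSBPL2, with a log2 fold change of 0.19 (95% interval -0.05 to 0.43), and the largest in favour of Oxy210 that of OSBPL6, at -0.19 (-0.77 to 0.39). Every adjusted p was 0.9996 in edgeR's test over all genes. The narrowest intervals were those of OSBPL10 (-0.17 to 0.27), OSBPL2 and OSBP (-0.26 to 0.22), and the widest those of OSBPL6, OSBPL7 (-0.66 to 0.47) and OSBPL5 (-0.67 to 0.33). For OSBPL9 the difference was -0.01 (-0.28 to 0.27). These intervals bound how far the compounds could differ, and missing the threshold does not show that the compounds act alike on the family.

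Apart from its RT-qPCR of selected genes in xenografts, the study compared by RNA-seq only r1-r4 of the Oxy186-treated samples with the control group. Because these samples were chosen on the measured expression of the same libraries, the p-values below are not those of samples chosen beforehand. In this contrast 3 of 12 members were called (25%), 1 higher and 2 lower, beside 19.7% of all tested genes, 4.73% higher and 15% lower. None of the 3 passed the added limit of a 2-fold change, which 8.34% of all tested genes passed.

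OSBPL7 had 32.0, 33.2, 17.3 and 24.3 CPM in r1, r2, r3 and r4, and it was the only member whose range did not overlap with that of the control tumors (36.1 to 75.9 CPM), beside 11.6% of all genes. In r5, r6 and r7 it had 59.5, 81.5 and 44.2 CPM, within or above the control range. Its log2 fold change for r1-r4 was -0.91 ± 0.22 (SE, adjusted p = 0.0102, edgeR). OSBPL5 had 7.30, 8.46, 6.51 and 8.81 CPM in r1 to r4, and 12.4, 22.6 and 11.5 in r5 to r7. One control tumor reached down to 8.52 CPM, so the ranges overlapped. The log2 fold change of OSBPL5 was -0.79 ± 0.20 (adjusted p = 0.0132, edgeR), and without r3 its adjusted p was 0.0527. OSBPL9 had 165, 228, 238 and 233 CPM in r1 to r4, so that r1 lay within the control range and the other 3 above it. Its log2 fold change was 0.41 ± 0.12 (adjusted p = 0.0311, edgeR), but this call was lost when any of control r1, r2, r3 or r5 or Oxy186 r2, r3 or r4 was left out, at adjusted p from 0.0537 to 0.0994, and without the filter on low counts (0.103).

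OSBPL5 and OSBPL7, the 2 members called lower, had the highest exon GC content of the family (62.6% and 59.7%), and OSBPL9, the 1 called higher, had 42.4%. OSBP2, at 56.6%, was not called (-0.59, adjusted p = 0.140, edgeR), nor was OSBPL8, at 34.7%. When the same fit took the GC trend of each library as an offset, 0 of 12 members were called, beside 4.05% of all tested genes, and 0 of 12 had an unadjusted p under 0.05, beside 18.7% of all tested genes. Without the offset 5 of 12 had it, beside 34.7%. The GC-adjusted CPM of 0 of 12 members stood clear of the control range, beside 4.79% of all genes. The log2 fold change of OSBPL7 was then -0.20 (95% interval -0.48 to 0.07), that of OSBPL9 was 0.20 (-0.02 to 0.42), and that of OSBPL5 changed sign to 0.21 (-0.15 to 0.57). The direction of OSBPL5 against control in this contrast therefore depended on the GC offset. OSBPL8, the member with the lowest GC content, went from 0.22 (-0.11 to 0.55) to -0.04 (-0.25 to 0.17). The GC slopes of r1-r4 (-0.511 to -0.18) all lay under those of the control tumors (-0.15 to 0.397). In this contrast the GC trend of the libraries and a difference between the groups that follows GC content therefore cannot be told apart. The offset takes out both.

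**Figure D4:**
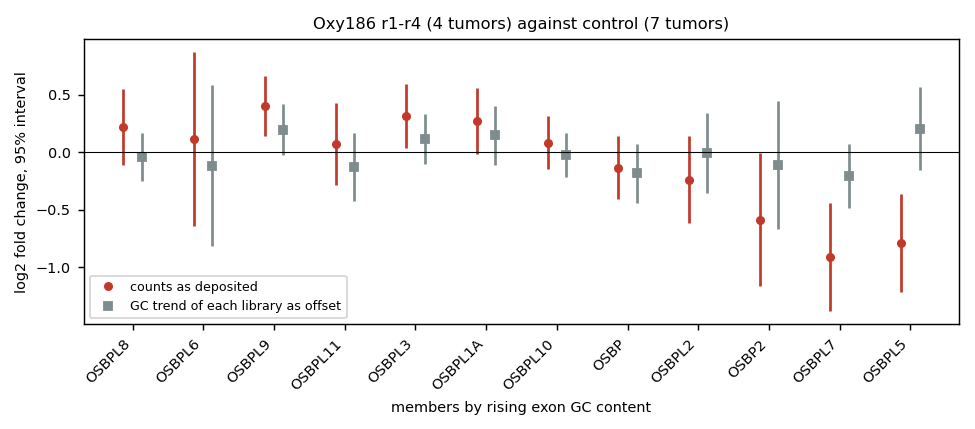
Log2 fold change with 95% interval for Oxy186-treated samples r1-r4 (4 tumors) against control (7 tumors), without (red circles) and with (grey squares) an offset for the GC trend of each library, with members ordered from 34.7% to 62.6% exon GC. The difference for OSBPL7 goes from -0.91 to -0.20 and that for OSBPL5 from -0.79 to 0.21.

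Between r1-r4 and r5-r7 of the same treatment, 6 of 12 members did not overlap in CPM, beside 31.6% of all genes. OSBPL1A, OSBPL3 and OSBPL8 were higher in all of r1-r4, and OSBP2, OSBPL5 and OSBPL7 were lower. After removal of the GC trend 1 of 12 remained apart, OSBPL1A, with 19.0 to 24.2 CPM in r1-r4 and 15.2 to 18.9 in r5-r7, beside 17% of all genes. This split was described and not tested.

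Across all 21 tumors the level of 8 of 12 members followed the library's GC slope (two-sided permutation test, adjusted over 12 relations), beside 43.5% of all genes with an absolute Pearson r at or above 0.559. The slope was fitted to log2 CPM on exon GC content over the other genes of the same libraries. A member whose GC content lies far from the median is therefore likely to follow it. The permutation p-values below thus describe the libraries and are no result about the family. OSBPL7 (r = 0.894, Spearman's rho = 0.835, adjusted permutation p = 4e-05 for each), OSBPL5 (r = 0.883, rho = 0.843) and OSBP2 (r = 0.559, rho = 0.630) rose with the slope, 3 of 12 beside 24.6% of all genes. OSBPL8 (r = -0.866, rho = -0.884), OSBPL9 (r = -0.819, rho = -0.771), OSBPL3 (r = -0.811, rho = -0.773), OSBPL1A (r = -0.670, rho = -0.696) and OSBPL11 (r = -0.596, rho = -0.560) fell with it, 5 of 12 beside 19.0% of all genes. The adjusted permutation p of these 8 lay between 4e-05 and 0.0129 for r and between 4e-05 and 0.0139 for rho. OSBP (r = 0.0842, rho = 0.0896), OSBPL10 (r = -0.184, rho = -0.138), OSBPL2 (r = 0.304, rho = 0.200) and OSBPL6 (r = -0.281, rho = -0.291) did not pass.

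Without Oxy186 r3 and r4, whose slopes were farthest from the median, 8 members still passed, with r of 0.838 for OSBPL7, 0.856 for OSBPL5, 0.628 for OSBP2, -0.902 for OSBPL8, -0.725 for OSBPL9, -0.721 for OSBPL3, -0.543 for OSBPL1A and -0.555 for OSBPL11. Without all of r1-r4 the count was also 8. The share over all genes was not computed for either reduced set, so neither count can be set against that of other genes. Within groups of 7 tumors the count depended on the measure. By Pearson's r, 2 members passed in control (OSBPL7 and OSBPL8), 4 in Oxy186-treated (OSBPL3, OSBPL5, OSBPL7 and OSBPL8) and 3 in Oxy210-treated tumors (OSBPL5, OSBPL8 and OSBPL9), beside 3.92%, 13.2% and 13.2% of all genes with an absolute r at or above the smallest of those members. By Spearman's rho, 0 passed in control, 4 in Oxy186-treated (OSBPL3, OSBPL7, OSBPL8 and OSBPL9) and 2 in Oxy210-treated tumors (OSBPL8 and OSBPL9). The share over all genes was not computed for rho, so these counts cannot be set against that of other genes. OSBPL8 had r of -0.940, -0.916 and -0.985 and rho of -0.893, -0.964 and -0.964 in the 3 groups, and in control its adjusted permutation p was 0.0167 for r and 0.0738 for rho. The r of a member rose with its own exon GC content over the 12 members (Pearson's r = 0.933, Spearman's rho = 0.902, given as a description), and Spearman's rho was 0.83 over all genes. Since the slope is itself fitted to log2 CPM on exon GC content over the other genes of the same 21 libraries, such a rise follows from its construction and is no result about the family.

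**Figure D5:**
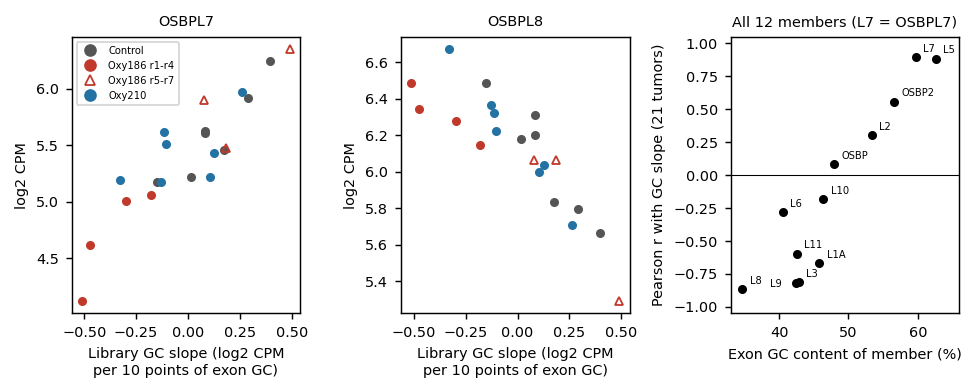
The first 2 panels plot log2 CPM of OSBPL7 and OSBPL8 against the GC slope of each library (log2 CPM per 10 points of exon GC), 1 point per tumor by group. The third panel plots each member's Pearson r with that slope over 21 tumors against its exon GC content in percent, from -0.866 for OSBPL8 at 34.7% to 0.894 for OSBPL7 at 59.7%.

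Removal of the GC trend left 18.0% of the variance of log2 CPM over the 21 tumors for OSBPL8, 22.6% for OSBPL7, 28.2% for OSBPL5, 38.4% for OSBPL9 and 41.5% for OSBPL3. For OSBP, whose GC content of 47.9% is near the median of all genes, 110% remained. The remaining members kept more than those first named: 64.1% for OSBPL11, 69.3% for OSBP2, 76.5% for OSBPL1A, 80.9% for OSBPL10, 91.9% for OSBPL6 and 95.3% for OSBPL2. After this removal OSBPL9 had 179, 190 and 208 CPM (lowest, median and highest) in Oxy210-treated tumors and 157, 172 and 177 in control tumors, so that the ranges no longer overlapped, as for 1 of 12 members and 0.294% of all genes. With GC offsets in edgeR's fit its log2 fold change was 0.18 (95% interval 0.04 to 0.31), with an adjusted p of 0.259, so the difference did not pass.

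The partners of the family were counted in 5 lists of 40 genes in all: endoplasmic reticulum anchors, PI4P kinases with the PI4P phosphatase, other lipid transfer proteins, enzymes and small GTPases that work with members, and other oxysterol sensors. In the whole-group comparisons 0 of 39 tested genes were called for Oxy186 against control, 0 of 38 for Oxy210 against control and 0 of 39 between the compounds (edgeR, adjusted p at or under 0.05). Over all tested genes 0% were called in each, so these counts do not set the partners apart. The smallest unadjusted p for Oxy186 belonged to PI4K2A, a Golgi and endosomal PI4P kinase (log2 fold change -0.41, adjusted p = 0.862, edgeR), before STARD3, an endosomal cholesterol carrier (-0.46), and NR1H2, which encodes the oxysterol receptor LXRβ (-0.51). For Oxy210 it was INSIG1, the oxysterol-binding retention factor of SREBP processing (-0.45 ± 0.14, adjusted p = 0.270, edgeR), before ARF1, the GTPase that recruits OSBP to the Golgi (-0.36), and RILP, a RAB7 effector that binds beside the OSBPL1A product (-0.43). Between the compounds it was again INSIG1, higher in Oxy186-treated than in Oxy210-treated tumors by 0.56 ± 0.21 (adjusted p = 0.9996, edgeR), before PTDSS1, a phosphatidylserine synthase (0.27), and PLEKHA8, a glycolipid transfer protein (-0.29).

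For r1-r4 against control, 12 of 39 tested list genes were called (30.8%, beside 19.7% of all tested genes), of which 11 were lower and 1 higher. Those with the smallest p were NR1H2 (-1.17 ± 0.21), STARD3 (-1.01 ± 0.19), the anchor MOSPD3 (-1.48 ± 0.32), the phosphatidylinositol transfer protein PITPNM2 (-0.85 ± 0.20) and the phosphatidylserine synthase PTDSS2 (-0.72 ± 0.18), with adjusted p from 0.00208 to 0.0127 in edgeR's test. The 1 higher gene, named after its value was seen, was SACM1L, the PI4P phosphatase (0.38, adjusted p = 0.0347, edgeR). With GC offsets 3 of 39 were called, beside 4.05% of all tested genes. Of these NR1H2 was lower (-0.48, adjusted p = 0.0408, edgeR), while RRAS, the GTPase bound by the OSBPL3 product, was higher (0.84, adjusted p = 0.00529), as was NR1H3, which encodes LXRα (0.60, adjusted p = 0.0295), the last 2 named after their values were seen. RRAS went from -0.28 without to 0.84 with the offsets, so its direction depended on them. Of the 12 genes called without the offsets, 4 changed sign with them and are named for that, PTDSS2 (from -0.72 to 0.06), PITPNM1 (from -0.97 to 0.08), GRAMD1A (from -0.56 to 0.14) and RILP (from -0.72 to 0.75), and PITPNM2 went from -0.85 to -0.07.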

How the data were processed

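RNA was sequenced from 21 A549-Luc2 xenografts, 7 per group, each library a separate tumor. The authors trimmed reads with Trimmomatic 0.39, aligned them with STAR 2.7.6a to a combined human and mouse genome, kept human alignments and made the deposited counts per gene with featureCounts of Subread 2.0.1. The authors also deposited log2 CPM for the control tumors and Oxy186-treated samples r1-r4. Recomputed values differed from these by at most 4.97e-14.

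Counts were tested with edgeR 4.0.16 (R 4.3.3) after filterByExpr and TMM normalization, in each comparison on its own groups, with Benjamini-Hochberg adjustment over all tested genes and calls at an adjusted p at or under 0.05. No 2 libraries of a group agreed within sampling noise. Level used RPKM over the union of exons in GENCODE 44 on GRCh38. GC trends were splines with 4 degrees of freedom per library fitted to genes averaging 1 log2 CPM or more. Relations used 100000 permutations. The fingerprint was found by translating each canonical coding sequence. Scripts were tested on simulated data. Alternatives were RLE factors, library size alone, DESeq2 1.42.0, limma 3.58.1 voom, no filter, GC offsets, a replicate block, and leaving out each library.

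All members were named, and of the partner lists up to 5 called genes by smallest p, or the 3 with the smallest p where none was called. Members and lists were chosen with earlier results of these data known.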

Additional observations from a re-analysis of the deposited data

Results flagged for a closer look

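Of 36 sets of 7 values (12 members in 3 groups), 3 held a tumor that stood apart from the other 6 by Dixon's criterion, where chance gives about 1.8. All were Oxy186-treated tumors. OSBP in r5 was at 6.23 log2 CPM, under the nearest value of 6.52. OSBPL2 in r6 was at 6.06, above the nearest value of 5.80. OSBPL8 in r6 was at 5.29, under the nearest value of 6.06, and r6 was also the library with the highest GC slope, 0.491, while its part in these values was not tested.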

How the results depend on the processing

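In the comparisons of whole groups the count of members called stayed at 0 under every alternative run. For r1-r4 against control it went from 3 to 0 with GC offsets and to 0 with a replicate block and GC offsets together, where all-gene calls fell from 3323 to 683 and 68. When 1 library was left out it ranged from 1 to 3, beside 10.7% to 23.6% of all tested genes. The count of 1, without Oxy186 r3, stood beside 10.9% of all tested genes, where 19.7% were called with every library kept. The number of neighbouring pairs that passed the permutation test of level went from 0 to 6 with the longest transcript as length. There the lowest possible p of 0.0156 was adjusted to 0.0286 in place of 0.0572. The count of members related to the GC slope went from 8 to 2 within control, 4 within Oxy186-treated and 3 within Oxy210-treated tumors, each with 7 libraries in place of 21. In that order, 43.5%, 3.92%, 13.2% and 13.2% of all genes had an absolute Pearson r at or above the smallest of those members. Over all genes, DESeq2 called 21 genes higher and 71 lower for Oxy210 against control and 7 between the compounds, where edgeR called 0.

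Direction changed in these cases, and the cause was not tested. For Oxy186 against control these were OSBPL10 with RLE factors (0.00847), library size alone (0.0168) and DESeq2 (0.00856), and OSBPL6 with limma voom (0.0265). With GC offsets they were OSBPL1A (-0.011), OSBPL5 (0.11) and OSBPL8 (-0.0818). For Oxy210 against control they were OSBPL10 with library size alone (0.00807) and, with GC offsets, OSBPL3 (-0.0279), OSBPL5 (0.17) and OSBPL7 (0.0581). Between the compounds they were OSBP with no filter (0.000157) and OSBPL9 with RLE factors (0.00464), DESeq2 (0.00463) and no filter (0.02). For r1-r4 with GC offsets they were OSBPL10 (-0.0228), OSBPL11 (-0.13), OSBPL5 (0.21), OSBPL6 (-0.12) and OSBPL8 (-0.0421).

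Same-numbered tumors did not deviate together (median correlation -0.251 for control and Oxy186, 0.0738 for control and Oxy210, -0.0828 for Oxy186 and Oxy210), so the replicate number was not taken as a pairing. With it as a block, the r1-r4 contrast called 2 of 12 members, OSBPL5 and OSBPL7, beside 14.1% of all tested genes. OSBPL6 changed sign for Oxy186 against control (0.0169). With the block and GC offsets together, OSBPL1A (-0.0223), OSBPL5 (0.11) and OSBPL8 (-0.0803) changed sign for Oxy186, OSBPL3 (-0.0276), OSBPL5 (0.18) and OSBPL7 (0.051) for Oxy210, and OSBPL11 (-0.00626) and OSBPL5 (0.24) for r1-r4.

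Leaving out 1 library at a time changed the sign of fold changes near 0. For Oxy186 against control the ranges were -0.0391 to 0.0611 for OSBPL10, -0.0895 to 0.0512 for OSBPL11, -0.00996 to 0.13 for OSBPL1A, -0.19 to 0.22 for OSBPL6 and -0.0478 to 0.15 for OSBPL8. For Oxy210 they were -0.00241 to 0.0975 for OSBPL3, -0.18 to 0.0167 for OSBPL5 and -0.0966 to 0.41 for OSBPL6. Between the compounds they were -0.0715 to 0.0404 for OSBP, -0.0179 to 0.19 for OSBP2, -0.30 to 0.0267 for OSBPL6, -0.34 to 0.0459 for OSBPL7, -0.15 to 0.00673 for OSBPL8 and -0.0559 to 0.0549 for OSBPL9. For r1-r4 the range was -0.0204 to 0.20 for OSBPL11. In each comparison the members not named in these ranges kept their sign when 1 library was left out. Of the partner lists, only GC offsets were tried, and 4 of 12 genes called for r1-r4 changed sign with them.

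OSBPL6 had the fewest reads of the family, 23 to 91 per library, and the share of its spread that comes from counting was not tested.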
